A study of Mus musculus with 2 samples.

Results

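Primary cilia are built and maintained by intraflagellar transport (IFT), in which trains of IFT-A and IFT-B proteins are carried along the axoneme by motors. The BBSome, a complex of Bardet-Biedl syndrome proteins, rides on these trains and moves membrane proteins, and tectonic proteins guard the transition zone at the ciliary base. Centrosomal (Cep) proteins include components of the centriole from which the cilium grows. Transcription factors of the RFX family are known regulators of ciliary genes in many animals and bind the X-box, an inverted repeat of 2 half-sites. Neurons and astrocytes of the cortex usually carry a single primary cilium, while ependymal cells at the ventricle carry many motile ones.

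The genes described here are the protein-coding genes of GENCODE M21 whose symbol is Ift, Bbs, Tctn or Cep followed by a digit. They number 60 of 21938 protein-coding genes on the nuclear chromosomes, of which 14 are Ift, 8 are Bbs, 2 are Tctn and 36 are Cep genes. They were chosen by symbol and not by a measured value. Tctn2 is annotated as non-coding in that release and was therefore not a member. Symbols group genes by name, so that not every Cep gene has a known role in cilia.

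DNase I hypersensitivity was profiled in 2 mice, both female, 14 days old and of the B6CASTF1/J strain, with 1 library per animal from the left cerebral cortex and no treatment named in the labels. This strain is the first-generation hybrid of C57BL/6J and CAST/EiJ. Both animals form 1 group, numbered biological replicates 1 and 2, and the labels place both under 1 donor record, so no contrast between conditions exists and no p-value was computed. A mean printed with ± is over n = 2, with the SD between these libraries.

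Replicate 1 had 90059 peaks and 199455 footprints, and replicate 2 had 175597 peaks and 416840 footprints, so that a site found in one library alone is more often a site of replicate 2. Sequencing depth is not known from the files. Of 4 pan-neuronal markers, 4 had a promoter peak in both libraries, as had 3 of 4 astrocyte markers and 0 of 4 choroid plexus markers, of which Folr1 and Clic6 had none in either library. The share over all protein-coding genes was 62.7%, so these small counts say little about the tissue. By signal, Gfap, Aldh1l1 and Slc1a3 stood only at the 33.5th, 18.1st and 5.5th percentiles of promoters with a peak in both libraries. The pan-neuronal markers Rbfox3, Snap25, Tubb3 and Syt1 stood at percentiles 37.6, 48.6, 60.6 and 66.1, so that Rbfox3 was close to Gfap. In bulk tissue, accessibility in fewer cells and weaker accessibility per cell cannot be told apart.

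A peak of DNase I cleavage marks a DNase I hypersensitive site (DHS), and a footprint is a short stretch within accessible DNA that is cut less than its surroundings. A promoter was taken as the 1 kb on either side of any annotated transcription start site (TSS) of the gene, its signal as the highest peak there, and it was called accessible when both libraries had a peak in it. An RFX half-site was GTTGCC or GTTACC on either strand. A paired site of the X-box type had 2 half-sites facing each other across 0 to 3 bases, with at most 1 mismatch in the 12 half-site letters, and was called touched when at least 6 of its bases lay in a footprint.

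Paired sites that carried a footprint in both libraries numbered 7, at 6 genes: Bbs7, Cep112, Cep135, Cep41, Ift52 and Ift57. They are shown because they are the sequences on which the RFX results below rest. Each is printed on the strand of its gene, from the mm10 reference (GRCm38.p6), with the half-site letters in capitals and 7 bases on either side. The 2 arms of the repeat and the mostly 2-base spacer can be read in each. The animals also carry a CAST/EiJ allele, which may differ from this reference and was not analysed here.
Bbs7, chr3:36613490-36613517, minus strand: cgccccgGTTGCCttGGAAACcggccag
Cep112, upstream site, chr11:108425019-108425046, plus strand: ctagacaGTTACCatAGCAACggagctg
Cep112, site at the start, chr11:108425175-108425202, plus strand: ccggagcGTCGCCatGGCAACagagttg
Cep135, chr5:76588760-76588787, plus strand: ccggtccGTTACCggGGCAACggcggcg
Cep41, chr6:30693859-30693887, minus strand: gtcccgcGTTGCCcttGGCAACcattgag
Ift52, chr2:163016987-163017014, plus strand: gtttcccGTTTCCatGGCAACcgttggc
Ift57, chr16:49699200-49699227, plus strand: gggtctgGTTGCCgtGGTGACcggctgc

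The sites of Cep135 and Cep41 matched the repeat with no mismatch, and the other 5 had 1. Cep135, whose protein is a core component of the centriole, has its site 73 bp downstream of the nearest start site. That of Cep41, needed for glutamylation of ciliary tubulin, lies 124 bp upstream and has a 3-base spacer, while the remaining 6 have 2 bases between the arms. Bbs7 encodes a BBSome subunit, and its site lies 27 bp upstream of the start. The sites of the IFT-B genes Ift57 and Ift52 lie 19 and 353 bp upstream. Cep112 has its pair of sites 159 and 3 bp upstream of the same start.

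These sites were chosen for a footprint in both libraries, so its presence in both was fixed by the choice and only its extent is compared. Except at Cep135, the extent was similar in both animals. At Cep41 the footprint covered chr6:30693862-30693889 in each library, 28 bp with identical ends. At Bbs7 it was 23 bp wide in both, displaced by a single base, and at Ift52 it was 22 bp in replicate 1 and 23 bp in replicate 2. At Ift57 the widths were 29 and 27 bp. All 14 bases of the site lay inside the footprint in both libraries at Bbs7, Ift52, Ift57 and both Cep112 sites, and all 15 at Cep41. Cep135 differed, with 2 footprints of 7 and 14 bp over 13 bases of the site in replicate 1 and 1 footprint of 25 bp over all 14 bases in replicate 2. The median footprint in the promoter windows of the 60 genes was 11 bp wide in replicate 1 and 12 bp in replicate 2, so that the footprints on the paired sites were wider than most, except in replicate 1 at Cep135.

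The sites were not all in strong peaks. The peak over the site had a signal of 4.33 and 4.12 in replicates 1 and 2 at Bbs7, 6.00 and 4.28 at Cep41, and 6.19 and 6.07 at Ift57. At Cep135 it was 2.06 and 1.43. At Ift52 the site lay in a separate, upstream peak of 1.60 and 1.78 and not in the peak at the start site. The upstream Cep112 site lay in a peak of 4.19 in replicate 1 but outside any peak in replicate 2, although replicate 2 had a footprint there. Thus, 6 of the 7 sites lay in a peak of both libraries.

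The sequence just upstream of the start of 3 of these genes is printed to show what surrounds the sites, 5′ to 3′ on the gene's strand, with bases that lay in a footprint of both libraries in capitals. In the 200 bases before the most 5′ start of Cep41, 100 bases were footprinted in both libraries, among them the whole paired site and a stretch with the NFY sequence on its reverse strand, ATTGG. In the 200 bases before Cep112, 84 bases were footprinted in both, in several separate blocks. In the 150 bases before Ift57, 72 bases were footprinted in both, including a block that holds the palindrome TGACGTCA, the cAMP response element (CRE).
Cep41, chr6:30693750-30693949, minus strand: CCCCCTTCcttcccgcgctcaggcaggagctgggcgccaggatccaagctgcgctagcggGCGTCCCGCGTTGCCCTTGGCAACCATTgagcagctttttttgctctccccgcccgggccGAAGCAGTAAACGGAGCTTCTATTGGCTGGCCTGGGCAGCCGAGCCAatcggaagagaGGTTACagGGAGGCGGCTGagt
Cep112, chr11:108424992-108425191, plus strand: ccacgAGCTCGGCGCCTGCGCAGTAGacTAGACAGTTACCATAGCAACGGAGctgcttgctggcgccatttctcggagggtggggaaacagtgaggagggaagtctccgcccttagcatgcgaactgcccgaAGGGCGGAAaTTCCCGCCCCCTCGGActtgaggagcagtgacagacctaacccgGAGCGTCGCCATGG
Ift57, chr16:49699083-49699232, plus strand: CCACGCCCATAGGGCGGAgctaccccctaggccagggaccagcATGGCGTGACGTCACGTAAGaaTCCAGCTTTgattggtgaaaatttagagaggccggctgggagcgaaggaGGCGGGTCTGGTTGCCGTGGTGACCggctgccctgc

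Paired sites without a footprint were also found. Of the 60 genes, 22 had at least 1 paired site in their promoter windows, 25 sites in all. Besides the 7 touched in both libraries, 2 were touched in 1 library, 7 lay in a peak of both libraries and were not touched, and 9 lay in no peak. No mismatch to the repeat was found at 3 of the 7 untouched sites in peaks and at 0 of the 9 in no peak. Those 3 are printed for comparison with those above, as is the site of Cep295nl, which lay in no peak.
Tctn1, chr5:122264404-122264431, minus strand: tgtgactGTTGCCcgGGCAACagacggg
Tctn3, chr19:40612352-40612378, minus strand: cccagcgGTTGCCaGGTAACgggaacc
Ift57, second site, chr16:49699227-49699253, plus strand: ccctgcgGTTGCCtGGTAACggtgggg
Cep295nl, chr11:118342550-118342577, minus strand: ctctgctGTTCCCatGGCAACagcctcc

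These untouched sites sat close to the start sites. Tctn1 and Tctn3 encode tectonics of the transition zone, and their sites lay 3 and 132 bp upstream of a start, in peaks of 1.88 and 1.61 at Tctn1 and of 5.17 and 3.74 at Tctn3. At Tctn3 a 7-bp footprint of replicate 1 covered 4 bases of the site, under the 6 required. The second Ift57 site lay 7 bp downstream of the start, in the peak that holds the first. The other untouched sites in peaks belonged to Bbs1, Cep162, Ift140 and Ift172. The 2 sites touched in 1 library were those of Cep19, in replicate 1 over 8 bases, and Ift122, in replicate 2 over 12 bases and outside any peak.

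**Figure D1:**
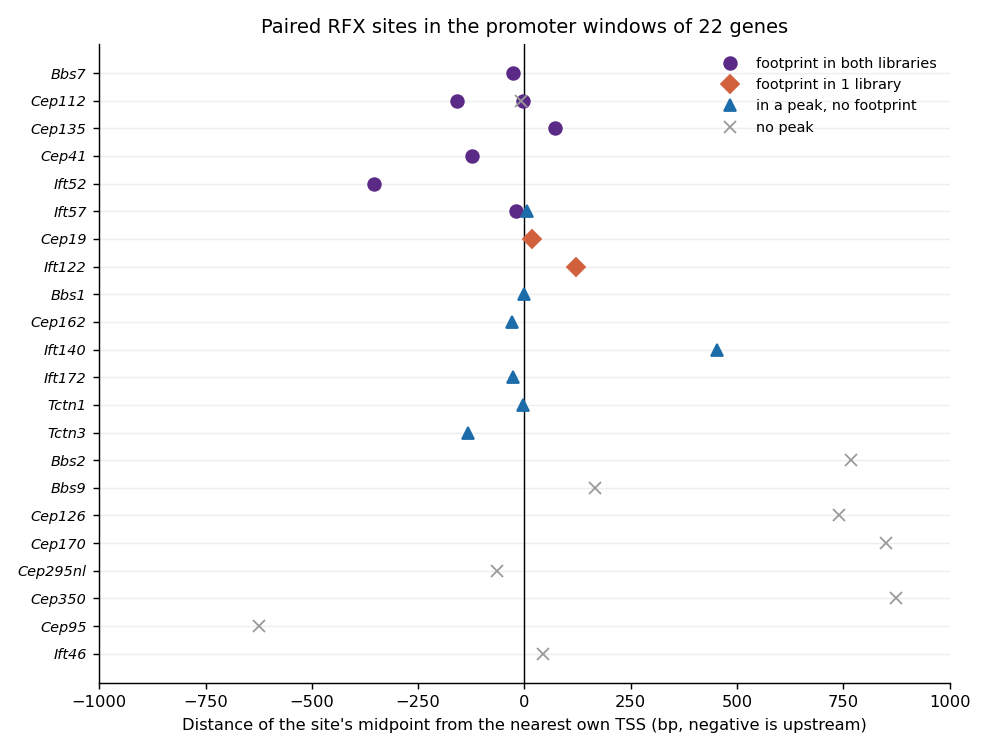
Distance in bp from the nearest start site of the gene to the midpoint of each of the 25 paired RFX sites at 22 genes, with negative values upstream and the symbol showing peak and footprint. The 7 sites touched in both libraries lie between 353 bp upstream and 73 bp downstream, and 18 of the 25 lie within 200 bp. At Cep112 the site in no peak belongs to another start site than the other two.

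Paired sites were more frequent at these genes than over all protein-coding genes, and they lay nearer to the nearest annotated start. At least 1 paired site stood in the promoter windows of 22 of the 60 genes (36.7%), against 10.6% of all protein-coding genes. Since these genes have more annotated start sites (a median of 6 against 3) and hence more window, the count was also made within 1 kb of the most 5′ start alone, where 17 of 60 (28.3%) had one against 5.55% overall. The 25 sites had a median distance of 64 bp from the nearest start, against 301 bp for all 2445 paired sites in promoter windows. Within 50 bp of a start lay 12 of 25 (48.0%), against 19.0%. These distances are to the nearest of all starts of a gene, and having more starts can shorten them. Distances from the most 5′ start alone were not compared with those over all genes. A single half-site separates the genes less, as 49 of 60 (81.7%) had one within 1 kb of the most 5′ start against 69.4% of all genes.

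A paired site touching a footprint in both libraries was found at 6 of the 60 genes, against 1.29% of all protein-coding genes and 2.06% of those with an accessible promoter. With no mismatch allowed, 2 genes had one, against 0.324% of all genes. An RFX half-site wholly inside a promoter footprint in both libraries was found at 8 of 60 (13.3%), against 2.18% of all protein-coding genes and 3.47% of accessible ones. With the longer half-site GTTGCCA or GTTACCA it was 4 genes, against 1.15% of all genes. Once a paired site lay in a peak of both libraries, however, its footprinting was ordinary. Of 14 such sites 6 were touched in both libraries (42.9%), and over all promoters it was 42.2% of 548. The higher share of touched sites thus went with more sites in the windows, and with 56.0% of them in a peak of both libraries against 22.4% over all promoters. The latter share includes promoters without a peak, as 62.7% of all genes were accessible against 98.3% of these. It was not counted for sites at accessible promoters alone.

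The 8 genes with a half-site in a footprint were the 6 named above together with Bbs2 and Ift81. At Ift81, an IFT-B gene whose product binds tubulin, a 37-bp footprint in replicate 1 and a 38-bp footprint in replicate 2 covered the start and held 2 half-sites 1 base apart. They face away from each other, so they do not make a paired site as defined here. At Bbs2, a BBSome subunit gene, the half-site lay 504 bp downstream of the nearest annotated start, in a footprint of 26 and 27 bp. Both are printed with the half-sites in capitals, since they are the footprinted half-sites outside a paired site.
Ift81, chr5:122614509-122614537, minus strand: caccgcatGGCAACcGTTGCCaaggagcg
Bbs2, chr8:94098410-94098435, minus strand: ccgctgctaGGCAACcggccggccaa

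Footprints with an RFX half-site were among the wide ones. At the 60 genes 9 of 446 footprints of replicate 1 and 10 of 573 of replicate 2 held a half-site. Of those at least 20 bp wide, a width chosen after the values were seen, 8 of 92 held one in replicate 1 (8.70%) and 9 of 138 in replicate 2 (6.52%). Over all promoters that share was 2.35% in each library. A longer footprint also has more room for any sequence, and below 20 bp the share was 0.282% and 0.230% at these genes and 0.419% and 0.398% over all promoters.

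Other promoter sequences were counted in the same way, whole and on either strand, each on its own even where matches overlap. GGGCGGGG, bound by SP and KLF factors, was footprinted in both libraries at 14 of the 60 genes (23.3%) against 11.9% of all genes, and among accessible promoters at 23.7% against 19.0%. It stood within 1 kb of the most 5′ start of 53.3% of these genes and 39.0% of all, and among accessible promoters of 54.2% and 53.4%. CCAAT, the NFY sequence, was footprinted at 5 genes (Bbs12, Cep295, Cep41, Cep57 and Tctn3), 8.33% against 3.56%, and stood in the window of 88.3% against 91.8%. For accessible promoters these shares were 8.47% against 5.68% and 88.1% against 90.4%. The CRE was footprinted at 3 (Cep57, Ift57 and Ift81), 5.00% against 1.86%, and stood in the window of 8.33% against 4.02%. Its shares of accessible promoters were 5.08% against 2.97% and 8.47% against 5.36%.

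The NRF1 sequence GCATGCGC was footprinted at 3 genes (Cep250, Cep57l1 and Ift80), 5.00% against 2.28%. It stood in the window of 8.33% of these genes and 7.43% of all. For accessible promoters the footprinted shares were 5.08% against 3.64%, and the window shares 8.47% against 9.73%. The E-box CACGTG was footprinted at 2 genes (Cep295 and Cep63), 3.33% against 1.27%, with window shares of 31.7% and 27.5%. Its shares of accessible promoters were 3.39% against 2.03%, with window shares of 30.5% and 32.3%. The ETS sequence CCGGAAG was footprinted at Bbs2 alone, 1.67% against 1.58%, with window shares of 33.3% and 24.6%. Among accessible promoters that order turns, with 1.69% against 2.52%, and the window shares are 33.9% and 33.3%. The YY1 sequence AAGATGGC was footprinted at none, against 0.365% of all genes, with window shares of 21.7% and 13.3%. With counts of 0 to 5 genes these shares change by over 1 percentage point with each gene, and a letter match does not show which protein was bound.

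**Figure D2:**
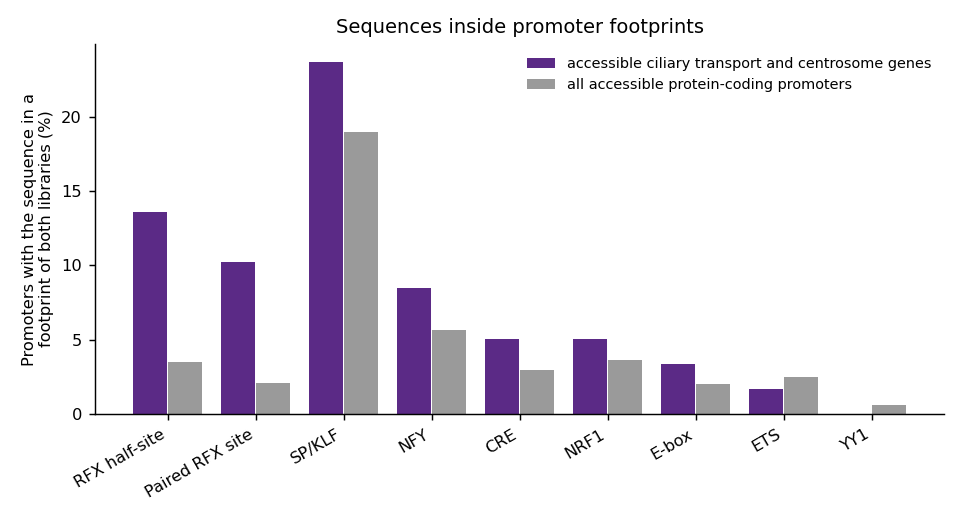
Share of accessible promoters, in percent, with each sequence inside a footprint of both libraries, or for the paired RFX site touching one, for the 59 accessible ciliary transport and centrosome genes and for all 13757 accessible protein-coding promoters. The RFX half-site stands at 13.6% against 3.47% and the paired site at 10.2% against 2.06%, while SP/KLF stands at 23.7% against 19.0%.

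The promoters themselves were accessible almost throughout. A peak in both libraries was present at 59 of the 60 genes (98.3%), against 62.7% of all protein-coding genes, and a footprint in both at the same number, against 60.8%. Counting only the most 5′ start left 58 of 60 (96.7%, against 57.6%), and Cep170b was the further gene without a peak, as its peaks lay at internal starts. Genes with neighbouring starts share a peak in this count, and 30 of the 60 genes had a start of another gene within 1 kb of their own, against 26.4% of all genes. Of the 30 without such a neighbour, 29 were accessible (96.7%), against 54.3% of 16143.

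Cep295nl was the exception. It had no peak, no footprint and no segment with a cleavage-rate q-value of at most 0.05 in its promoter windows in either library. Its ratio of observed to expected CpG sites was 0.17, where the median of the 60 genes was 0.76 and of all accessible promoters 0.71. Its surroundings were accessible, with 8 shared distal DHSs within 50 kb. The highest of these by mean signal, chr11:118327341-118327940, had 1.74 in replicate 1 and 2.93 in replicate 2. In replicate 1 alone chr11:118379741-118379940 was higher, with 2.00.

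Signals at the 59 accessible promoters were above those of most accessible promoters. Their median was 4.04 in replicate 1 and 3.59 in replicate 2, against 2.52 and 2.13 over all 13757 accessible protein-coding promoters, which gives 3.81 ± 0.317 (SD, n = 2) against 2.33 ± 0.275. The files state no unit for the signal. By mean signal the median gene stood at the 73.7th percentile of accessible promoters, 46 of 59 stood at or above the middle, 9 stood in the highest 10% and 0 in the lowest 25%. The midpoint of the top peak lay within 100 bp of a start site at 43 of 59 genes in each library. That share was not counted over all accessible promoters, so it does not set these genes apart.

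The difference was also present without shared promoters. The 29 accessible genes without a neighbouring start had medians of 3.72 and 3.30 in replicates 1 and 2, against 2.13 and 1.83 for all accessible genes of that kind. The 30 with a neighbouring start had 4.39 and 3.78, against 3.22 and 2.75. A gene transcribed away from a shared region on the other strand was present at 27 of the 60 (45.0%), against 18.3% of all genes and 26.5% of accessible ones. Such a neighbour was protein-coding at 19 (31.7%), against 11.0% of all genes and 16.6% of accessible ones. Of the 9 genes in the highest 10%, 6 shared their window with another gene.

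**Figure D3:**
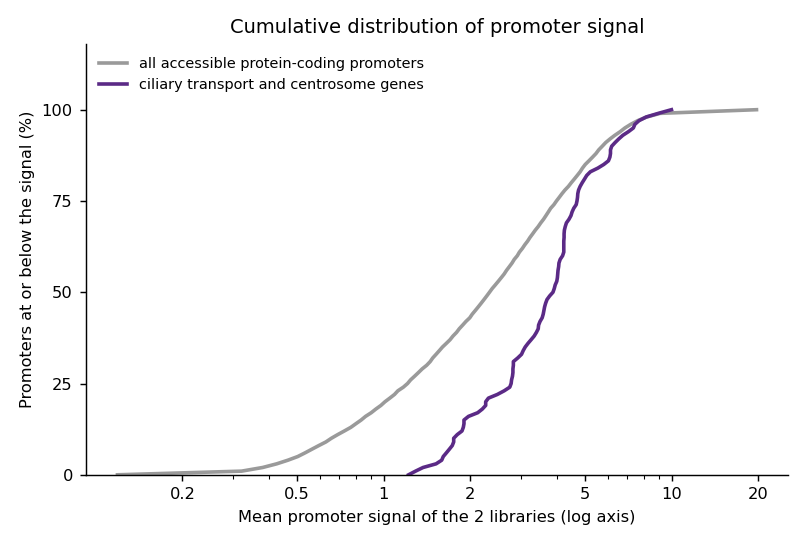
Cumulative share of promoters, in percent, at or below each mean promoter signal (log axis, unit not stated in the files), for the accessible ciliary transport and centrosome genes and for all accessible protein-coding promoters. The curve of the 59 genes lies to the right of the other in its lower and middle part, and the curves meet near the top.

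Among the IFT-A genes, whose products drive return transport and entry of membrane proteins, levels spread widely. Ift140 had a promoter signal of 8.04 in replicate 1 and 8.52 in replicate 2 (8.28 ± 0.339), the highest of the 14 Ift genes in both libraries. Its window is shared with Cramp1l, on the opposite strand. Ift122 had 5.96 and 6.18 (6.07 ± 0.160), in a window shared with Mbd4. Ift43 had the lowest mean of the Ift genes, 2.11 and 1.12 (1.62 ± 0.701), at the 35.3rd percentile of accessible promoters. The libraries of these 3 genes did not overlap between genes, although Ift43 differed 1.89-fold between them.

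The 4 genes of the peripheral IFT-B subcomplex were Ift20, Ift57, Ift172 and Ift80. Ift20, whose protein also acts at the Golgi, had 6.23 and 6.03 (6.13 ± 0.137), beside Tnfaip1. Ift57 had 6.19 and 6.07 (6.13 ± 0.0814) with no neighbouring start. The values of these 2 genes are closer together than the SD of either. Ift172 had 5.92 and 4.04 (4.98 ± 1.33), and Ift80, which shares its window with Smc4, had 3.54 and 3.32 (3.43 ± 0.159).

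The core IFT-B genes were led by Ift27, which encodes a small GTPase, with 6.66 in replicate 1 and 8.33 in replicate 2 (7.50 ± 1.18). Ift27 shares its window with Gm49694. Ift46 followed with 4.35 and 4.27 (4.31 ± 0.0568) beside Arcn1, and Ift81 with 5.12 and 3.30 (4.21 ± 1.29). Their order is not settled by 2 libraries, since Ift81 lay above Ift46 in replicate 1 and below it in replicate 2. Ift74, the partner of Ift81, had 3.86 and 3.87 (3.87 ± 0.00847), and Ift88, whose loss in mice gives short or absent cilia, had 4.07 and 3.33 (3.70 ± 0.526). Ift22, another small GTPase, had 4.25 and 3.02 (3.63 ± 0.869). The ranges of Ift22, Ift74 and Ift88 overlap.

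Ift52 differed most between the libraries of all the members. It had 3.72 in replicate 1 and 1.80 in replicate 2 (2.76 ± 1.36), 2.07-fold, and it was the 1 gene of 59 (1.69%) beyond 2-fold, against 1.35% of all accessible promoters. The next were Ift43, Cep126 (1.87-fold), Bbs4 (1.72-fold) and Cep83 (1.65-fold), each higher in replicate 1. In the other direction the ratios were smaller, led by Ift27 with a log2 ratio of 0.32, Cep44 with 0.29, Cep192 with 0.23, Cep85 with 0.22 and Cep170b with 0.21. Over the 59 genes 43 were higher in replicate 1 (72.9%), close to the 70.8% of all accessible promoters, with a median log2 ratio of replicate 2 to replicate 1 of -0.17 against -0.18.

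Of the 6 BBSome subunit genes, Bbs2 was the highest with 7.26 and 7.43 (7.34 ± 0.119). Its top peak was centred 427 bp downstream of the nearest annotated start in both libraries, and no other gene starts within 1 kb. Bbs9, in a window shared with Gm16164, had 4.96 and 4.48 (4.72 ± 0.341), Bbs7 had 4.33 and 4.12 (4.22 ± 0.151) and Bbs5 had 3.64 and 3.47 (3.56 ± 0.115). These 4 genes kept this order in both libraries. Bbs1 with 2.01 and 1.79 (1.90 ± 0.159) and Bbs4 with 2.00 and 1.16 (1.58 ± 0.593) were lower, with nearly equal values in replicate 1. Bbs12 and Bbs10, the chaperonin-like proteins that help to assemble the BBSome, had 5.74 and 3.68 (4.71 ± 1.45) and 3.31 and 3.59 (3.45 ± 0.195). Bbs12 shares its window with Cetn4 and Gm43439.

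The tectonic genes differed from each other beyond their spread. Tctn3 had 5.17 and 3.74 (4.46 ± 1.01) and Tctn1 had 1.88 and 1.61 (1.75 ± 0.189), so that both libraries of Tctn3 were above both of Tctn1. Tctn3 shares its window with Entpd1, on the opposite strand, and Tctn1 shares its window with no other gene.

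The 35 accessible Cep genes ranged from 1.59 to 9.82 in replicate 1 and from 0.851 to 10.1 in replicate 2. Cep57, a pericentriolar protein, was the highest of all 60 genes with 9.82 and 10.1 (9.98 ± 0.228). Its top peak was centred 484 and 454 bp upstream of its own nearest start, in a window shared with Fam76b. Cep89, of the distal appendages that anchor the centriole to the membrane, had 6.67 and 6.91 (6.79 ± 0.172) beside Faap24, and Cep85 had 5.93 and 6.91 (6.42 ± 0.699). Both libraries of Cep57 were above both libraries of these 2 genes.

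The next Cep genes were Cep95 with 6.37 and 5.03 (5.70 ± 0.942), beside Ddx5, and Cep41 with 6.00 and 4.28 (5.14 ± 1.22). Cep131, of the centriolar satellites, had 4.99 and 4.68 (4.83 ± 0.217) beside Gm25948, and Cep350 had 4.66 and 4.67 (4.67 ± 0.00847) beside Gm9694. Cep120, a centriole elongation factor, had 5.35 and 3.70 (4.53 ± 1.16). The ranges of Cep41, Cep120 and Cep131 overlap, so their order is not settled. Cep112, with 3 paired RFX sites, had 4.19 and 4.25 (4.22 ± 0.0417), while Cep135 had 2.06 and 1.43 (1.75 ± 0.441), at the 38.1st percentile. Cep126 had the lowest mean of the accessible genes, 1.60 and 0.851 (1.22 ± 0.526).

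By family the medians in replicates 1 and 2 were 4.74 and 3.96 for Ift, 3.98 and 3.64 for Bbs, 3.53 and 2.68 for the 2 Tctn genes and 3.26 and 3.41 for Cep. The Ift median was above the Cep median in each library, and 5 of 14 Ift genes stood in the highest 10% of accessible promoters against 3 of 36 Cep genes. A paired site touched in both libraries was found at 2 Ift, 1 Bbs, 0 Tctn and 3 Cep genes, while a paired site stood in the windows of 12 of the 24 Ift, Bbs and Tctn genes and of 10 of the 36 Cep genes.

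**Figure D4:**
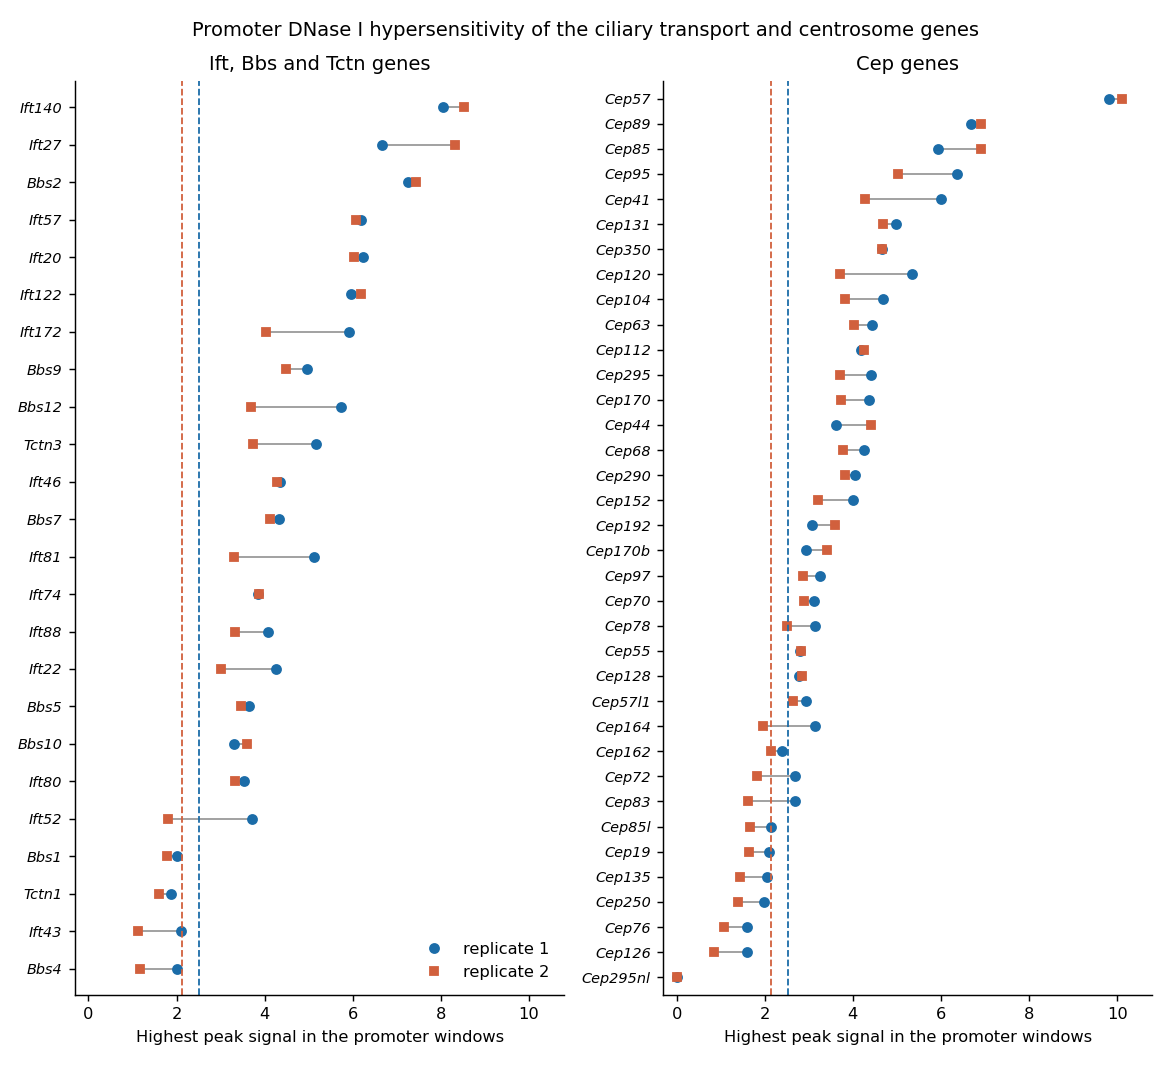
Highest peak signal (unit not stated in the files) in the promoter windows of each of the 60 genes in replicate 1 (circles) and replicate 2 (squares), joined by a line and ordered by the mean, with dashed lines at the medians of all accessible protein-coding promoters (2.52 in replicate 1 and 2.13 in replicate 2). Most genes lie right of the lines, Cep57 is the highest at 9.82 and 10.1, and Cep295nl is at 0 in both.

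The median number of footprints in an accessible promoter of these genes was 8 in replicate 1 and 9 in replicate 2, against 6 and 8 over all accessible promoters, with ranges of 1 to 15 and 3 to 28. The families differed, with medians of 9 and 9 for Cep, 7 and 7.5 for Bbs, 5 and 8.5 for Ift and 5.5 and 8 for Tctn, so that Ift and Tctn lay below the background in replicate 1. An overlapping footprint in the other animal was found for 72.0% of the 446 footprints of replicate 1 and for 53.6% of the 573 of replicate 2, against 67.1% and 45.2% over all promoters. Around the most 5′ start a median of 904 and 1069 bases lay in segments with a cleavage-rate q-value of at most 0.05, against 721 and 854.

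Distal accessibility was less distinct. Regions with a peak of both libraries, over 1 kb from every annotated start of any gene and within 50 kb of a start of the gene, numbered 219 at the 60 genes, a mean of 3.65 per gene. The mean was 3.14 over all protein-coding genes and 3.77 over those with an accessible promoter, and the median was 3 in each. With replicate 2 alone the mean was 8.72 against 7.20 over all genes, and with the authors' stricter peak list it was 1.83 against 1.86, so that the order turns. Cep295, Cep350 and Tctn3 had none. The median signal of the 219 regions was 0.694 in replicate 1 and 0.826 in replicate 2, against 0.655 and 0.737 over 52122 distal regions.

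Distal DHSs were most numerous at Bbs9 and Ift81 with 12 each, Ift122 with 11, Ift43 with 10 and Cep78 and Cep295nl with 8. Of the 12 at Bbs9, 10 lay inside the gene, as did 8 of 11 at Ift122. The strongest at Ift122, chr6:115891721-115891920, had 2.58 in replicate 1 and 3.61 in replicate 2, and held an RFX half-site in a footprint of both libraries. At Ift43 the strongest was chr12:86132861-86133080 with 2.79 and 2.74, and at Ift81 chr5:122627341-122627540 with 3.30 and 2.01. RFX half-sites lay in a footprint of both libraries in 10 of the 219 regions (4.57%), at 8 genes, against 2.10% of all distal regions. Which gene a distal region acts on was not measured.

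Related ciliary genes outside these 4 name families were counted from hand-made lists. All 18 other IFT and ciliary motor genes were accessible in both libraries, with medians of 3.25 and 2.63, led by Wdr19, of IFT-A, with 6.30 and 6.84 (6.57 ± 0.388) and Kifap3, of the kinesin-2 motor, with 4.68 and 5.47 (5.07 ± 0.557). A paired RFX site was touched in both libraries at 3 of the 18: Dync2li1, Wdr35 and Ttc26. All 8 other genes linked to Bardet-Biedl syndrome, not all of which encode BBSome subunits or chaperonins, were accessible (5.42 and 5.10). They were led by Mkks with 6.80 and 7.34 (7.07 ± 0.386) and Bbip1 with 5.89 and 7.77 (6.83 ± 1.33). Of these 8 genes, 3 had a touched paired site: Arl6, Ttc8 and Lztfl1. Sdccag8 on this list shares its peak with Cep170.

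Of 17 other transition zone genes 17 were accessible (3.44 and 2.69), led by Nphp4 with 10.6 and 8.62 (9.63 ± 1.42), and Mks1 and Tmem237 had a touched paired site. The 20 other centrosome and centriole genes were all accessible (4.25 and 3.91), led by Odf2 with 7.81 and 7.27 (7.54 ± 0.386) and Tubg1 with 6.40 and 6.61 (6.50 ± 0.148), and 0 of them had a footprinted half-site or a touched paired site. These shares are to be read beside the 62.7% of all genes with an accessible promoter and the 1.29% with a touched paired site.

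Primary cilium receptor and signalling genes had lower promoter signals, with medians of 1.19 and 0.864. Of 11, 10 were accessible in both libraries, led by Pkd1 with 4.53 and 5.25 (4.89 ± 0.506) and Arl13b with 3.61 and 4.06 (3.84 ± 0.313), and Sstr3 had a peak in replicate 2 alone. Motile cilium genes, which also mark ependymal cells, were accessible at 18 of 19, with medians of 1.24 and 1.36. The medians of both lists lay below the 2.52 and 2.13 of all accessible promoters. The motile cilium genes ranged from Dnah5, with no peak, to Rsph1 with 12.3 and 11.4 (11.8 ± 0.679). Dnaic1 had 6.29 and 5.72 (6.01 ± 0.399), and Foxj1, the factor that switches on motile ciliogenesis, came next with 6.00 and 5.11 (5.55 ± 0.628). Other genes of the list were lower, among them Ccno with 3.17 and 3.45, Mcidas with 0.609 and 0.577 and Gmnc with 0.270 and 0.338. A paired site was touched in both libraries at 2 of the 19 motile cilium genes, Ccdc40 and Spef2, and at 0 of the 11 receptor and signalling genes, and it stood in the windows of 8 and 1. Over all protein-coding genes, 62.7% had an accessible promoter, 1.29% had a touched paired site and 10.6% had a paired site in the windows. The part of ependymal cells in the values of the 60 genes was not tested.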

How the data were processed

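Peaks, footprints and cleavage-rate segments of each library were used as deposited on mm10. The authors processed each library by itself, per the labels and the deposited notes. For aligner and callers, no name is given in the sources used here. The peak signal deposited by the authors (the larger of 2 lists) has no stated unit. The deposited false discovery rate (q-value) was at most 0.05 in every segment. The footprint files hold the constant 0.01 and give no rank.

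Genes came from GENCODE M21 and sequences from GRCm38.p6. Shared DHSs were peaks of both libraries that overlap by at least 1 base. CpG ratios covered 500 bp on either side of the most 5′ TSS. Coordinates are 1-based. Members, lists, sequences and alternatives were chosen with earlier results of these data known. Named were all Ift, Bbs and Tctn genes, the 8 highest Cep genes, those without a promoter DHS or with a touched paired site, the 6 with most distal DHSs, the 5 largest ratios in each direction, and of each other list the 2 highest and up to 2 without any peak; others named were singled out after their values were seen. A gene that this rule selected is not reported here.

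There was no test, as 1 group of 2 libraries allows none. The interval and sequence functions were tested on simulated data. Python 3.11.15, NumPy 2.4.6, pandas 2.3.3, Numba 0.67.0, Matplotlib 3.10.9 and bedtools 2.31.1 were used. Alternatives varied the peak list, equal peak numbers, window, start sites, distance, neighbours, overlap rules, sequence and library.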

Additional observations from a re-analysis of the deposited data

How the results depend on the processing

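The count of accessible promoters (59 of 60) was 58 or 59 under the stricter peak list, 500-bp windows, the most 5′ start, equal numbers of peaks, the midpoint rule and either library alone, and 29 of 30 without genes that have a neighbouring start. Over all genes the accessible share was 57.2% to 67.8% under these settings, and 54.3% without genes that have a neighbouring start. The median over the genes' mean promoter signals, 3.87, lay between 3.59 and 4.04 under its alternatives. The RFX results depend on the sequence required. With the longer half-site GTTGCCA or GTTACCA, 4 genes had one in a footprint of both libraries (1.15% of all genes), where 8 did with the shorter form. Without any mismatch allowed, 2 genes had a touched paired site (0.324% of all genes), where 6 did with 1 mismatch. Windows, start sites, overlap and either library alone gave 8 or 9 genes with a footprinted half-site and 6 or 7 with a touched paired site. The shares over all genes moved more, from 1.68% to 4.46% for the half-site and from 0.948% to 1.99% for the paired site. The 9 genes were found where 1 base of the half-site in a footprint was enough (4.15% of all genes) and with replicate 2 alone (4.46%). The mean number of distal DHSs, 3.65, was between 4.15 and 8.72 with 1 library alone (3.50 and 7.20 over all genes), and it was 1.83 with the stricter list, below the 1.86 over all genes, so that its place beside the background turns. Depth is unknown, and replicate 1 has fewer peaks and footprints than replicate 2, which limits what was called in both.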
